A study of Mus musculus with 3 samples.

Results

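RNA was measured for 35 of 36 listed mouse genes of the p53 pathway and of apoptosis, among 31510 gene rows in each deposited table. Members were taken by gene symbol (26 genes) or, where the symbol was not found, by Ensembl ID (9 genes). Bcl2l2 was not analysed here. The 3 groups are dormant blastocysts, reactivating blastocysts taken 6 h after estradiol (E2) and reactivated blastocysts taken 12 h after E2, with 1 library each from a pool of more than 3000 embryos. All mothers were CD-1 mice, 2 months old, whose ovaries were removed on day 4 of pregnancy and who received progesterone (2 mg per mouse) from day 5 to day 7. Dormant embryos were flushed on day 8 without E2, and the other groups had E2 on day 7, so that the time of collection moved together with E2. With 1 library per state there is no replicate check, no SD and no p-value, and every interval below covers counting error only.

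The p53 protein is a transcription factor that the ubiquitin ligase Mdm2 and its relative Mdm4 hold down. When released, it switches on genes that arrest the cell cycle and genes of cell death. In mitochondrial apoptosis, BH3-only proteins block the guardians Bcl2, Bcl2l1 (BCL-xL) and Mcl1 or activate Bax and Bak1, which open the outer mitochondrial membrane. Cytochrome c then assembles Apaf1 and caspase 9 into the apoptosome, while death receptors act through Fadd and caspase 8. Mouse embryos without Mdm2 or without Mcl1 die around implantation.

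The promoters of 30 of the 35 measured members were in the RefSeq table (build GRCm38.p6). The 250 bases before each start were searched for exact matches to the p53 half-site decamer. Its consensus, though not each match, is its own reverse complement, so that a match on either strand is a match on both. With Bcl2l2, whose reads were not analysed here, 6 of 31 genes held it (19.4%), namely Trp53, Mdm2, Bax, Bmf, Sesn1 and Ei24, against 8.20% of 27025 genes with a window. A gene with several starts has several windows, and a match in any of them counted. The matches are a description of letters in these windows and of nothing bound there. Shown here are 4 windows that hold a decamer, in genes that stood high at 6 h (Mdm2, Bmf) or differed little (Bax, Sesn1). The window of Casp9, the only member called lower, is shown too and holds none, like most of the 31 genes. Trp53, lowest at 6 h in exon reads, and Ei24 hold a decamer and are not shown. Fadd, Bcl2l1, Bcl2l11 and Xiap stood high at 6 h and hold none. A link between decamer and level was not tested. Capitals mark the decamer.
Bax (chr7:45466899-45467148, minus strand): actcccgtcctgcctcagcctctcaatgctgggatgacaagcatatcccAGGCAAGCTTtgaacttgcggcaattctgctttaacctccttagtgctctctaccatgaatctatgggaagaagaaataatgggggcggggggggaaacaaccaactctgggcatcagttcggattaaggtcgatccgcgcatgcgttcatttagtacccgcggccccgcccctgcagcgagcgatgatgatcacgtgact
Mdm2 (chr10:117710759-117711008, minus strand): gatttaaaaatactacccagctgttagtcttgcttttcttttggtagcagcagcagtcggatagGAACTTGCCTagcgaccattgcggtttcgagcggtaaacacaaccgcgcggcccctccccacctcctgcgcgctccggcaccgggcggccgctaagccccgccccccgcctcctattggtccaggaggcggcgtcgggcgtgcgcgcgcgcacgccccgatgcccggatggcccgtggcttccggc
Sesn1 (chr10:41887189-41887438, plus strand): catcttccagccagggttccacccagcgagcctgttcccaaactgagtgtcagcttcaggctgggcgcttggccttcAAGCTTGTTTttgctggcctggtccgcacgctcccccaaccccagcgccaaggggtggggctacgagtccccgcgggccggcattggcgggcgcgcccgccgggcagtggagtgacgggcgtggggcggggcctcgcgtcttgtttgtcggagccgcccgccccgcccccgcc
Bmf (chr2:118544588-118544837, minus strand): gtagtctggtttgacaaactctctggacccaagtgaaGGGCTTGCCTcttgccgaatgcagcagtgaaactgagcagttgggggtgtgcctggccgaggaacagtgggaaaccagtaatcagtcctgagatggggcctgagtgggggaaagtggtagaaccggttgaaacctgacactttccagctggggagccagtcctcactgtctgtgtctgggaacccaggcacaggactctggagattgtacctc
Casp9 (chr4:141793362-141793611, plus strand): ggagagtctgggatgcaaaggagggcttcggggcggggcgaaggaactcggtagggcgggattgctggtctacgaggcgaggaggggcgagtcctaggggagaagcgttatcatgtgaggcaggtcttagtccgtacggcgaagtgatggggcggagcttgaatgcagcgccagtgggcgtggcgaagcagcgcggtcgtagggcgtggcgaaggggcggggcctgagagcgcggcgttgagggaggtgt
The decamer begins 201 bases before the start in Bax, 186 in Mdm2, 173 in Sesn1 and 213 in Bmf. Only in Bax and Sesn1 did a pair of half-sites up to 13 bases apart come within 2 mismatches of the full site, as it did in 9.72% of all genes with a window.

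Exon reads numbered 9298675 for dormant, 10364607 for reactivating and 12941447 for reactivated embryos. Of these, 17.8%, 18.6% and 24.3% came from mt-Rnr2, a ribosomal RNA of mitochondria, in the same order. All 7 trophectoderm markers, 5 epiblast markers and 4 primitive endoderm markers checked were at 1 RPKM or more in each library. RPKM is exon reads per kilobase of exon, scaled to the library total, the authors' own scale. Red blood cell markers stayed under 1 RPKM (4 of 4 in each library), and of 7 uterine stroma markers only Col3a1 reached it, at 2.39, 1.73 and 0.71 RPKM in dormant, reactivating and reactivated embryos. The summed level of 8 leukocyte markers was 19.2, 16.5 and 5.89 RPKM and that of 9 uterine epithelium markers 111, 108 and 64.9 RPKM in the same order. In the uterine epithelium list Lif, Msx1 and Wfdc2 gave most of the sum, while Calb1 and Ltf were under 1 RPKM. In the leukocyte list Laptm5 was at 13.7, 11.5 and 4.11 RPKM, and Ptprc, which defines leukocytes, at 0.09, 0.27 and 0.20 RPKM. In pooled whole embryos, fewer cells of a type and less RNA per cell cannot be told apart.

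Most members were expressed in all states, and most of these differed by less than 2 times. Of the 35, 26 were at 1 RPKM or more in every library, and 21 of these 26 had a highest level under 2 times their lowest. The share of all genes under the same limit is not given here, so that this count describes the members only. A further 4 (Bik, Bmf, Bbc3, Birc3) reached 1 RPKM in some libraries, and Bcl2, Casp8, Cycs, Fas and Cflar stayed under 1 RPKM in all. The summed level of the 35 was 275 RPKM in dormant, 311 in reactivating and 260 in reactivated embryos. The range of levels was wide, with the guardian Mcl1 at 33.5, 40.8 and 40.5 RPKM (rank 1211, 1056 and 1084 among all rows) and the guardian Bcl2 at 0.04, 0.04 and 0.08 RPKM.

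**Figure D1:**
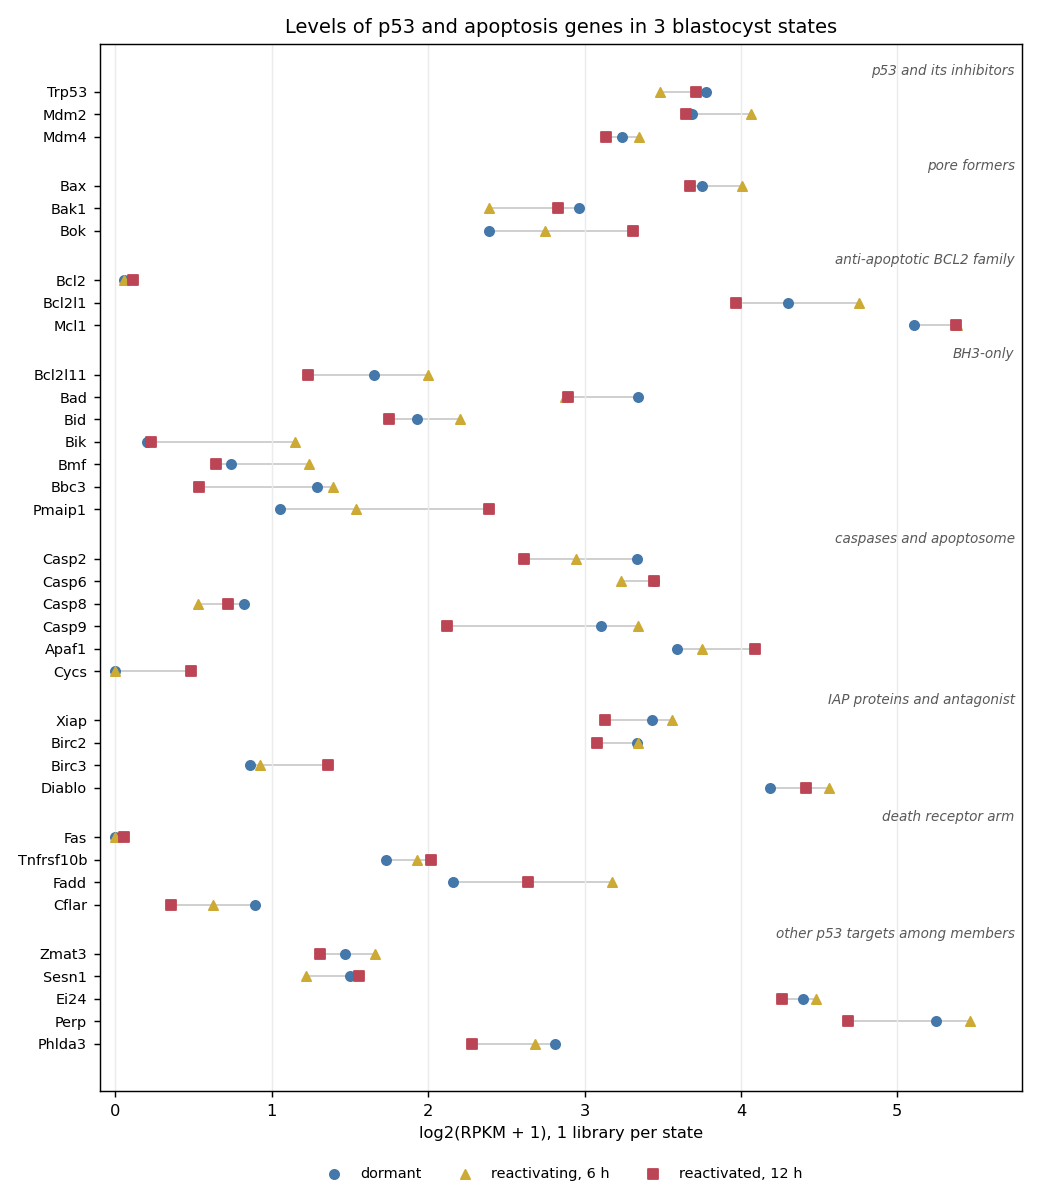
Level of each measured member on the scale log2(RPKM + 1), with 1 library per state as circle (dormant), triangle (reactivating, 6 h) and square (reactivated, 12 h), grouped by role. Mcl1 and Perp are the highest, and Pmaip1 and Casp9 show wide gaps between states.

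A gene was called higher or lower when its log2 difference on RPKM + 1 was at least 1 in size, that is 2 times, and the higher library had at least 1 RPKM. The pseudocount of 1 RPKM understates the change of low genes. In reactivating against dormant blastocysts 1 of 29 measured members was higher (Fadd), against 2.68% of 12126 genes, and none was lower, against 3.07%. In reactivated against dormant blastocysts 1 of 28 was higher (Pmaip1), against 5.27% of 12037 genes, and none was lower, against 7.66%. In reactivated against reactivating blastocysts none of 30 was higher, against 3.82% of 12065 genes, and 1 was lower (Casp9), against 7.63%. The share of members called was thus 3.45%, 3.57% and 3.33% in the 3 comparisons, against 5.75%, 12.9% and 11.4% of all genes in either direction. These comparisons share libraries, so that their counts are not independent.

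Smaller differences were described by the exon ratio, which is the ratio of a gene's exon reads per library total, with its exact 95% interval. In reactivating over dormant embryos the interval lay wholly above 1 for 15 of 29 members, against 28.7% of all genes tested, and wholly below 1 for 4, against 17%. In reactivated over dormant embryos it lay above 1 for 8 of 28, against 29.2%, and below for 10, against 37.5%. In reactivated over reactivating embryos it lay above 1 for 7 of 30, against 25.8%, and below for 18, against 41%. With median-ratio scaling the last pair of counts was 9 above and 13 below, and with upper-quartile scaling 9 above and 11 below. The shares of all genes just given hold for the deposited scaling only and are not given for these. At 6 h over dormant, Bok, Apaf1, Xiap and Zmat3 no longer had an interval above 1 with median-ratio scaling. That of Sesn1 came to lie below 1. The median log2 difference of measured members was 0.19, -0.12 and -0.29 in the 3 comparisons, against 0.06, -0.07 and -0.13 for all genes tested. Scaling by median ratios in place of library totals moved every gene by -0.06, 0.10 and 0.16 on the log2 scale in the same order.

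**Figure D2:**
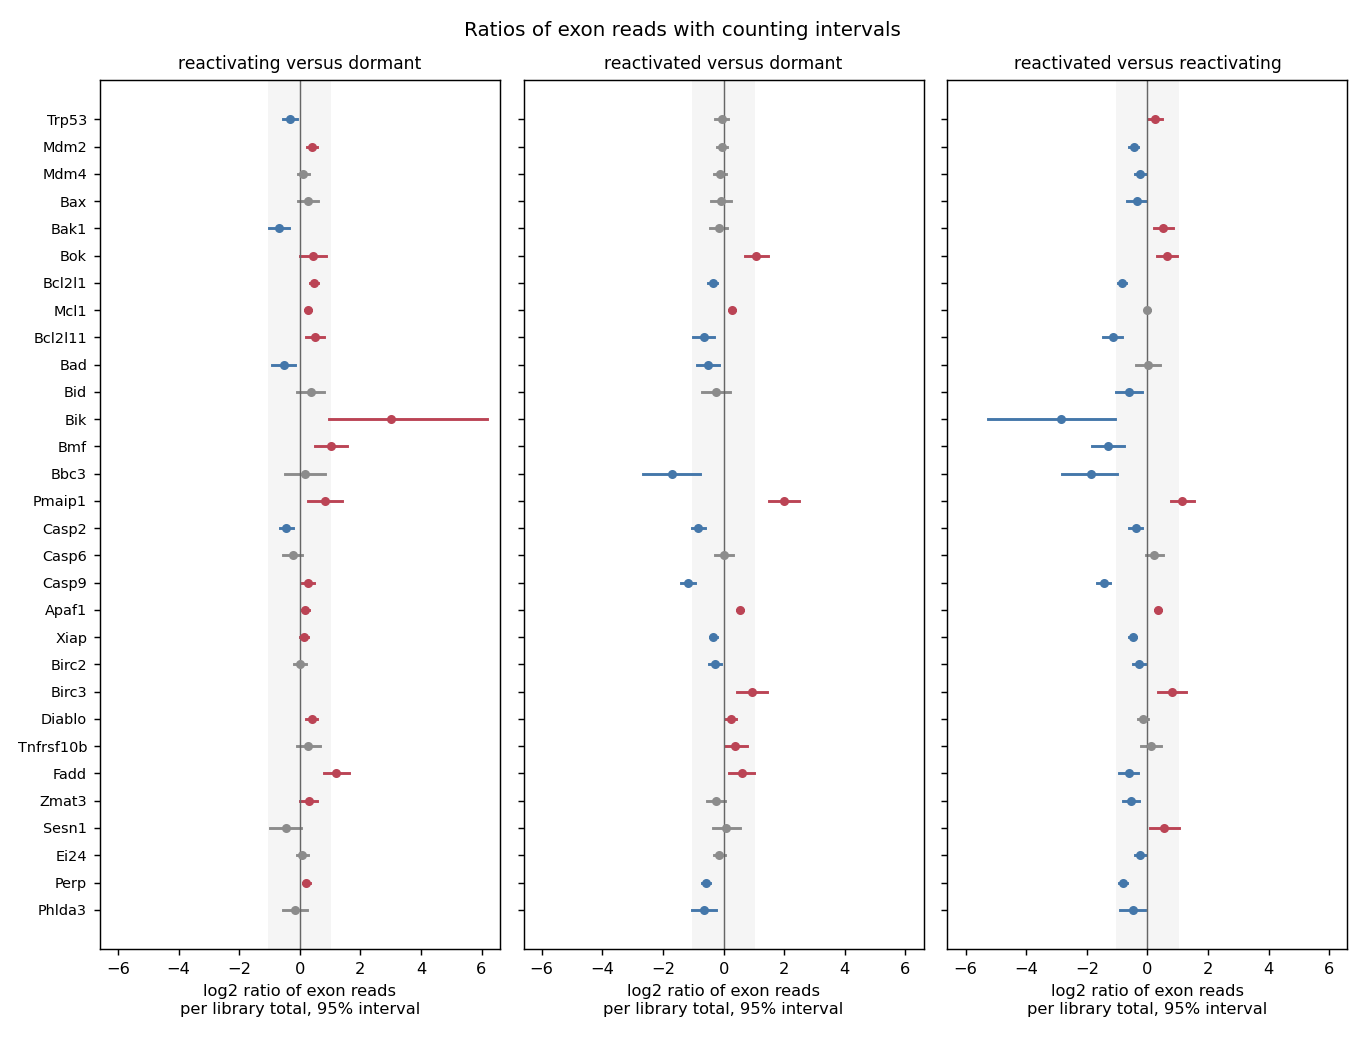
Log2 ratio of exon reads per library total with exact 95% counting intervals for members at 1 RPKM or more, in 3 panels, 1 per comparison, with red intervals wholly above 0, blue wholly below 0, grey neither, and the band of 2 times shaded. By log2 difference 75.9% of members lie to the right of 0 at 6 h, against 58% of all genes, and 66.7% lie to the left in reactivated against reactivating embryos, against 58.4%.

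Of 30 members at 1 RPKM in any library, 10 were higher in reactivating embryos than in either other state with both intervals apart from 1, namely Mdm2, Bcl2l1, Bcl2l11, Bik, Bmf, Casp9, Xiap, Fadd, Zmat3 and Perp. This is 33.3%, against 15.3% of 12454 genes. Both comparisons behind the pattern use the reactivating library, so that any error of that library counts in both. With median-ratio scaling the count was 8, without Xiap and Zmat3, and the share of all genes 9.89%. Only Trp53 and Bak1 were lower in reactivating embryos than in both other states, 6.67% of the 30 against 5.63% of all genes, and Sesn1 joined them with median-ratio scaling. Higher than dormant at 6 h and lower at 12 h were 5 of the 30 (Bcl2l1, Bcl2l11, Casp9, Xiap, Perp), 16.7% against 7.11% of all genes, and the opposite turn was seen in none of the 30, against 2.27%.

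Trp53, the gene of p53 itself, was a little lower at 6 h than in both other states by exon reads and was not called. It was at 12.7 RPKM (95% Poisson interval 11.3 to 14.1, 327 reads) in dormant, 10.2 (9.05 to 11.4, 292 reads) in reactivating and 12.1 RPKM (10.98 to 13.3, 420 reads) in reactivated embryos (ENSMUSG00000059552, chromosome 11, 69580359 to 69591873, GRCm38). The intervals of dormant and reactivated embryos overlap, and the log2 differences were -0.29 at 6 h and -0.06 at 12 h, the sign at 12 h turning with median-ratio scaling (exon ratio 1.02 in place of 0.955). Its exon ratio was 0.804 (0.684 to 0.944) for reactivating over dormant and 1.189 (1.021 to 1.385) for reactivated over reactivating embryos. Both intervals stayed apart from 1 with median-ratio scaling. Its junction reads, 29, 46 and 54, did not show this dip. Their ratio was 1.43 (0.878 to 2.36) for reactivating over dormant and 0.970 (0.6425 to 1.47) for reactivated over reactivating embryos. Both of these junction intervals include 1. Its intron reads moved differently, with 72 in dormant, 154 in reactivating and 168 in reactivated libraries. Scaled to the intron total of each library, the intron ratio was 2.18 (1.64 to 2.93) for reactivating over dormant and 2.08 (1.57 to 2.79) for reactivated over dormant. Among all genes with at least 20 intron reads, 11.2% at 6 h and 16.8% at 12 h were at least 2 times higher by this measure, and the median gene was at 1.16 in each. With median-ratio scaling of intron reads Trp53 no longer reached 2 times. The annotation holds the pseudogene Trp53-ps, so that the exon count carries some uncertainty.

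Of the inhibitors, Mdm2 was highest at 6 h, while the exon reads of Mdm4 were not apart from dormant embryos at either time. Mdm2 stood at 11.9 RPKM (10.9 to 12.9, 525 reads) in dormant, 15.7 (14.6 to 16.9, 773 reads) in reactivating and 11.5 RPKM (10.7 to 12.4, 685 reads) in reactivated embryos (chromosome 10, 117688875 to 117710758). By exon reads the reactivating value alone stands apart, with an exon ratio of 1.32 (1.18 to 1.48) over dormant. For reactivated over reactivating embryos it was 0.732 (0.660 to 0.813). Junction reads of Mdm2, 82, 110 and 69, gave ratios over dormant of 1.21 (0.899 to 1.63) at 6 h and 0.626 (0.448 to 0.873) at 12 h. By junction reads it was thus the reactivated value that stood apart from dormant. Mdm4, which binds p53 without degrading it, was at 8.46 (7.66 to 9.31), 9.18 (8.39 to 10.02) and 7.80 RPKM (7.14 to 8.50) from 417, 503 and 517 reads (chromosome 1, 132959484 to 133030561). The intervals of neighbouring times overlap, while the exon ratio of reactivated over reactivating embryos was 0.849 (0.750 to 0.962), or 0.9502 (0.839 to 1.08) with median-ratio scaling. The annotation holds the pseudogene Mdm4-ps, which makes this count uncertain too. Mdm4 kept 48.2%, 50.2% and 47.99% of its reads in introns. For reactivating over dormant its junction ratio was 1.548 (1.08 to 2.24, 86 and 50 reads). Its intron ratio was 1.335 (1.167 to 1.528), where the median gene was at 1.16.

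The pore formers went separate ways. Bax was at 12.5, 15.1 and 11.8 RPKM in dormant, reactivating and reactivated embryos, with exon ratio intervals that include 1 in both comparisons with dormant embryos. Its exons share 192 bases with Gm45808 on the same strand, so that part of its count is uncertain. Bak1 was at 6.80, 4.23 and 6.10 RPKM, lowest at 6 h, with an exon ratio of 0.622 (0.495 to 0.779) for reactivating over dormant. Its reads across exon junctions were 79, 39 and 59, ratios of 0.444 (0.295 to 0.660) at 6 h and 0.5555 (0.390 to 0.788) at 12 h over dormant. Junction reads were thus below dormant at both times, while the exon ratio at 12 h was 0.897 (0.7385 to 1.09). For reactivated over reactivating embryos the junction ratio was 1.25 (0.820 to 1.92), an interval that includes 1. Bok, a relative of Bax and Bak1 that can form pores without them, was at 4.24 RPKM (3.37 to 5.26, 82 reads), 5.72 (4.76 to 6.83, 123 reads) and 8.92 RPKM (7.81 to 10.1, 232 reads). The reactivated value is above the others, with an exon ratio of 2.10 (1.63 to 2.74) over dormant and a log2 difference of 0.92 that missed the call. With median-ratio and with upper-quartile scaling Bok passed it. Its intron reads, 17, 22 and 54, gave a ratio of 2.83 (1.62 to 5.22) over dormant.

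Among the 3 measured guardians, Mcl1 and Bcl2l1 held nearly all the message. Mcl1 had 1584, 2142 and 2573 exon reads (33.5, 40.8 and 40.5 RPKM, intervals 31.9 to 35.2, 39.1 to 42.5 and 38.9 to 42.1) in dormant, reactivating and reactivated embryos (chromosome 3, 95658788 to 95663176). Both states after E2 are above dormant, with exon ratios of 1.22 (1.14 to 1.3) at 6 h and 1.21 (1.13 to 1.29) at 12 h, small beside the called genes. Its intron reads were 79, 95 and 178, so that the intron ratio was 2.01 (1.54 to 2.66) for reactivated over dormant, under 2 times with median-ratio scaling. Bcl2l1 had 18.7 (17.4 to 20.1), 26 (24.5 to 27.5) and 14.7 RPKM (13.7 to 15.7) from 755, 1164 and 794 reads (chromosome 2, 152780668 to 152831728). Its 3 intervals do not overlap, and its level was highest at 6 h and lowest at 12 h. Its intron reads ran otherwise, 440, 294 and 367, lowest at 6 h. Bcl2 had 4, 5 and 11 exon reads in 7191 bases of exon against 54, 92 and 102 intron reads, too few in exons for a level.

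The BH3-only genes were low as a group and held the called rise at 12 h. Pmaip1 (NOXA, which binds Mcl1) had 41, 81 and 218 exon reads, or 1.07 RPKM (0.767 to 1.45), 1.90 (1.51 to 2.36) and 4.23 RPKM (3.68 to 4.83) in dormant, reactivating and reactivated embryos (ENSMUSG00000024521, chromosome 18, 66458533 to 66465565). No interval overlaps another, and the order follows the time after E2. The log2 difference of reactivated against dormant embryos was 1.34, with an exon ratio of 3.96 (2.82 to 5.67). Its intron reads, 19, 12 and 20, gave a ratio of 0.940 (0.476 to 1.86) in the same comparison. Bbc3 (PUMA), a strong BH3-only activator and p53 target, was at 1.44, 1.62 and 0.45 RPKM from 36, 45 and 15 reads, with an exon ratio of 0.310 (0.158 to 0.580) for reactivated over dormant. Its log2 difference of -0.75 missed the call, and Pmaip1 and Bbc3, both known p53 targets, thus stood on opposite sides of dormant embryos at 12 h.

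Bcl2l11, Bmf and Bik were above both other states at 6 h. Bcl2l11 (BIM) was at 2.14, 3 and 1.35 RPKM (154, 240 and 131 reads), with intron reads in the same order of levels at 192, 252 and 119. For reactivated over reactivating embryos its exon ratio was 0.451 (0.362 to 0.560) and its intron ratio 0.413 (0.329 to 0.515). Bmf was at 0.67, 1.36 and 0.56 RPKM (44, 99 and 49 reads) and Bik at 0.15, 1.22 and 0.17 RPKM from only 2, 18 and 3 reads. Bik thus had an exon ratio of 8.10 at 6 h with an interval of 1.94 to 72.0, and a log2 difference of 0.95. Bad, which growth factor signals hold inactive by phosphorylation, was at 9.13, 6.32 and 6.42 RPKM, highest in dormant embryos. Bid, which caspase 8 cuts to link death receptors to mitochondria, was at 2.81, 3.61 and 2.37 RPKM, with intervals that include 1 in both comparisons with dormant embryos.

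Casp9, the initiator caspase of the apoptosome, had the only called fall. It was at 7.59 RPKM (6.86 to 8.38, 394 reads) in dormant, 9.15 (8.39 to 9.97, 528 reads) in reactivating and 3.35 RPKM (2.94 to 3.81, 234 reads) in reactivated embryos (ENSMUSG00000028914, chromosome 4, 141793612 to 141815976). The reactivated level is below the other 2 with no overlap. The log2 difference was -1.22 for reactivated against reactivating embryos, with an exon ratio of 0.366 (0.313 to 0.428), and -0.98 for reactivated against dormant, just short of the call, with a ratio of 0.442 (0.374 to 0.521). Junction reads were 36, 55 and 33, a ratio of 0.682 (0.412 to 1.13) for reactivated over dormant. Intron reads were 49, 51 and 50. The leukocyte and uterine epithelium marker sums given above were also lowest in reactivated embryos, as were those of trophectoderm markers (1210, 1191 and 937 RPKM in dormant, reactivating and reactivated embryos) and primitive endoderm markers (58.4, 54.6 and 44.4 RPKM). The sum of epiblast markers was lowest in dormant embryos, at 139.3, 186.5 and 166.6 RPKM in the same order. Pou5f1 gave most of it, at 87.1, 125 and 124 RPKM. In reactivated against dormant embryos 2 of the 5 epiblast markers were above and 3 below, with a median log2 difference of -0.05. Klf4 and Esrrb were among those below, with exon ratios of 0.492 and 0.494. Among trophectoderm genes Cdx2 (34.8 RPKM in reactivated and 113 RPKM in dormant embryos) and Gata3 (21.1 RPKM in reactivated and 48.01 RPKM in dormant embryos) were called lower and Elf5 (81.3 RPKM in reactivated and 30.1 RPKM in dormant embryos) higher. The part of these markers in the lower Casp9 level was not tested.

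Apaf1, the scaffold that caspase 9 joins, went the other way at 12 h, with 11.03, 12.5 and 16.01 RPKM from 1020, 1282 and 1991 reads. Its exon ratio was 1.45 (1.35 to 1.57) for reactivated over dormant, and its intron ratio 1.01 (0.857 to 1.19). Casp2, a caspase that p53 signalling and mitotic faults can activate, was at 9.11, 6.71 and 5.11 RPKM, highest in dormant embryos. Its junction reads were 107, 40 and 41, and its intron reads 188, 288 and 223. The executioner Casp6 was at 9.87, 8.42 and 9.88 RPKM in exons, while its introns held 27, 95 and 47 reads. The intron ratio of Casp6 was 3.595 (2.32 to 5.74) for reactivating over dormant and stayed above 2 times with median-ratio scaling. Casp8 was at 0.77, 0.44 and 0.65 RPKM. Cycs, cytochrome c, was listed with 0, 0 and 4 exon reads, and the annotation holds its pseudogenes Cycs-ps2 and Cycs-ps3, so that its level cannot be given here.

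**Figure D3:**
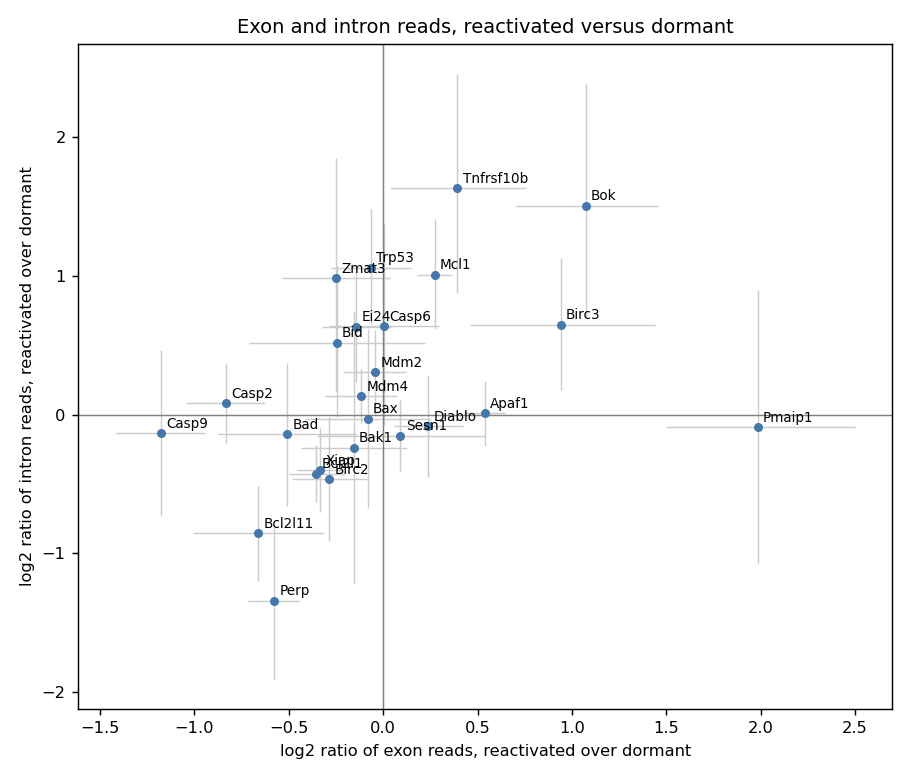
Log2 ratio of intron reads per intron total against log2 ratio of exon reads per library total, reactivated over dormant embryos, for members at 1 RPKM or more with at least 20 intron reads, bars being exact 95% counting intervals. Bok lies high on both axes and Perp low on both, while Pmaip1 and Casp9 differ in exons with introns near 0, and Trp53 and Tnfrsf10b differ more in introns than in exons.

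The IAP proteins, which bind or tag caspases, differed little. Xiap, the direct caspase inhibitor, was at 9.80, 10.8 and 7.76 RPKM in dormant, reactivating and reactivated embryos and Birc2 at 9.10, 9.12 and 7.47 RPKM. Their exon ratios for reactivated over dormant were 0.792 (0.728 to 0.862) and 0.821 (0.716 to 0.942). The neighbouring gene Birc3 was low, at 0.82, 0.90 and 1.57 RPKM, with a ratio of 1.92 (1.37 to 2.72). Diablo, the mitochondrial protein that frees caspases from IAP proteins, was at 17.2 RPKM (15.6 to 18.96, 409 reads) in dormant, 22.6 (20.8 to 24.5, 597 reads) in reactivating and 20.3 RPKM (18.8 to 21.9, 649 reads) in reactivated embryos (chromosome 5, 123509765 to 123524176). Dormant embryos were lowest, with exon ratios of 1.31 (1.16 to 1.49) at 6 h and 1.18 (1.04 to 1.34) at 12 h over dormant. Its exons share 1193 bases with Gm49027 on the same strand in the annotation, so that part of its count is uncertain.

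In the death receptor arm, Fadd, the adaptor between receptors and caspase 8, held the called rise at 6 h. It was at 3.47 RPKM (2.72 to 4.36, 73 reads) in dormant, 8.04 (6.93 to 9.28, 188 reads) in reactivating and 5.23 RPKM (4.42 to 6.15, 148 reads) in reactivated embryos (ENSMUSG00000031077, chromosome 7, 144577318 to 144582463). The intervals do not overlap, and reactivating embryos stand highest. The log2 difference at 6 h was 1.02 with an exon ratio of 2.32 (1.76 to 3.08), and with median-ratio scaling it was 0.96, which ends the call. Only 0, 0 and 1 of its reads crossed an exon junction. The receptor Fas had 0, 0 and 1 exon reads, where 3 reads, the limit that a count of 0 allows, would be 0.145 RPKM in dormant embryos.

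Tnfrsf10b, the mouse TRAIL receptor, was at 2.32, 2.80 and 3.05 RPKM, with exon ratios under 1.5 times. Its introns held 19, 67 and 66 reads, ratios of 3.602 (2.14 to 6.35) at 6 h and 3.10 (1.84 to 5.47) at 12 h over dormant, and its junction reads were 5, 26 and 29. Cflar, the inhibitor of caspase 8, was under 1 RPKM with 0.86, 0.54 and 0.28 RPKM from 96, 67 and 42 reads, highest in dormant embryos. Intron reads were at least 2 times higher for 3 of 28 members in reactivating than in dormant embryos (Trp53, Casp6, Tnfrsf10b), against 11.2% of 11661 genes. None was lower by 2 times, against 1.45%. In reactivated over dormant embryos they were higher for 4 of 31 (Trp53, Bok, Mcl1, Tnfrsf10b), against 16.8% of 12159 genes, and lower for 2 (Bik, Perp), against 3.54%. For reactivated over reactivating embryos they were higher for 2 of 31 (Bok, Fas), against 6.25% of 12394 genes, and lower for 4 (Bcl2l11, Casp6, Cflar, Perp), against 6.28%.

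The remaining p53 targets among the members did not pass the call in any comparison. Perp, a membrane protein of desmosomes that p53 induces, was the highest of them at 37.0 (34.7 to 39.4), 43.2 (40.8 to 45.7) and 24.8 RPKM (23.1 to 26.5) from 959, 1244 and 863 reads (chromosome 10, 18845020 to 18857073). Reactivated embryos were lowest with no overlap, at an exon ratio of 0.669 (0.610 to 0.735) over dormant. Its introns, with 95, 91 and 42 reads, gave 0.395 (0.268 to 0.573). Ei24, a protein of the endoplasmic reticulum, was at 20.05, 21.3 and 18.2 RPKM. Zmat3, an RNA-binding protein, was at 1.77, 2.16 and 1.48 RPKM, and Sesn1, a stress-induced regulator of growth signalling, at 1.83, 1.33 and 1.95 RPKM. Phlda3, an inhibitor of Akt, was at 6.01, 5.41 and 3.85 RPKM, with an exon ratio of 0.641 (0.486 to 0.845) for reactivated over dormant.

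Among other genes of the pathway, none of 22 other p53 targets, 21 p53 regulators and 28 other apoptosis genes at 1 RPKM or more was called in reactivating against dormant embryos. Of all genes 5.75% were called there in either direction. In reactivated against dormant embryos, 1 of 22 other p53 targets was higher and 3 were lower, 18.2% in either direction against 12.9% of all genes. Plk3, a stress kinase, was higher at 14.9 RPKM in reactivated and 5.22 RPKM in dormant embryos. The CDK inhibitor Cdkn1a was at 3.27 RPKM in reactivated and 15.2 RPKM in dormant embryos, an exon ratio of 0.216 (0.177 to 0.261). Btg2, an antiproliferative gene, was at 8.78 RPKM in reactivated and 23.2 RPKM in dormant embryos, and Steap3, a metalloreductase, at 2.33 RPKM in reactivated and 5.92 RPKM in dormant embryos. The median log2 difference of these 22 genes was -0.26, against -0.07 for all genes.

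Of 30 other apoptosis genes in the same comparison, 1 was higher and 3 were lower, 13.3% in either direction and so close to the 12.9% of all genes. Birc5 (survivin), an IAP family protein of mitosis, was at 17.8 RPKM in reactivated and 7.71 RPKM in dormant embryos. Pdcd4, a translation inhibitor, was at 25.2 RPKM in reactivated and 109 RPKM in dormant embryos, an exon ratio of 0.232 (0.217 to 0.248). Ddit3, a transcription factor of endoplasmic reticulum stress, and Dapk1, a death-associated kinase, were at 8.79 and 5.60 RPKM in reactivated embryos, against 24.4 and 14.1 RPKM in dormant ones. None of 21 regulators was called, and their median was -0.16. In reactivated against reactivating embryos, Gadd45a and Plk3 were higher and Cdkn1a, Btg2 and Steap3 lower among 21 other targets. Chek1 was the only call among 21 regulators (higher, at 8.86 RPKM in reactivated and 3.35 RPKM in reactivating embryos). Ddit3, Dapk1 and Pdcd4 were lower among 30 apoptosis genes. The shares called in either direction were 23.8%, 4.76% and 10% in these 3 lists, against 11.4% of all genes. The marker sums of leukocytes, uterine epithelium, trophectoderm and primitive endoderm were also lower at 12 h. The epiblast sum was higher in reactivated than in dormant embryos, while 3 of its 5 markers were lower. All 3 leukocyte markers at 1 RPKM or more were lower in reactivated than in dormant embryos, Tyrobp with only 0 and 9 reads. Of those under 1 RPKM, Lyz2 was lower, while Ptprc, Fcer1g, Cd3e and Cd52 were higher, all from few reads. Ptprc had 20 reads in reactivated and 7 in dormant embryos, a ratio of 2.13 (0.863 to 5.95). Of 7 uterine epithelium markers at 1 RPKM or more 4 were lower and 3 higher, among them Spink1 (1.87 RPKM in reactivated and 0.19 RPKM in dormant embryos). The part of these markers in the falls was not tested.

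**Figure D4:**
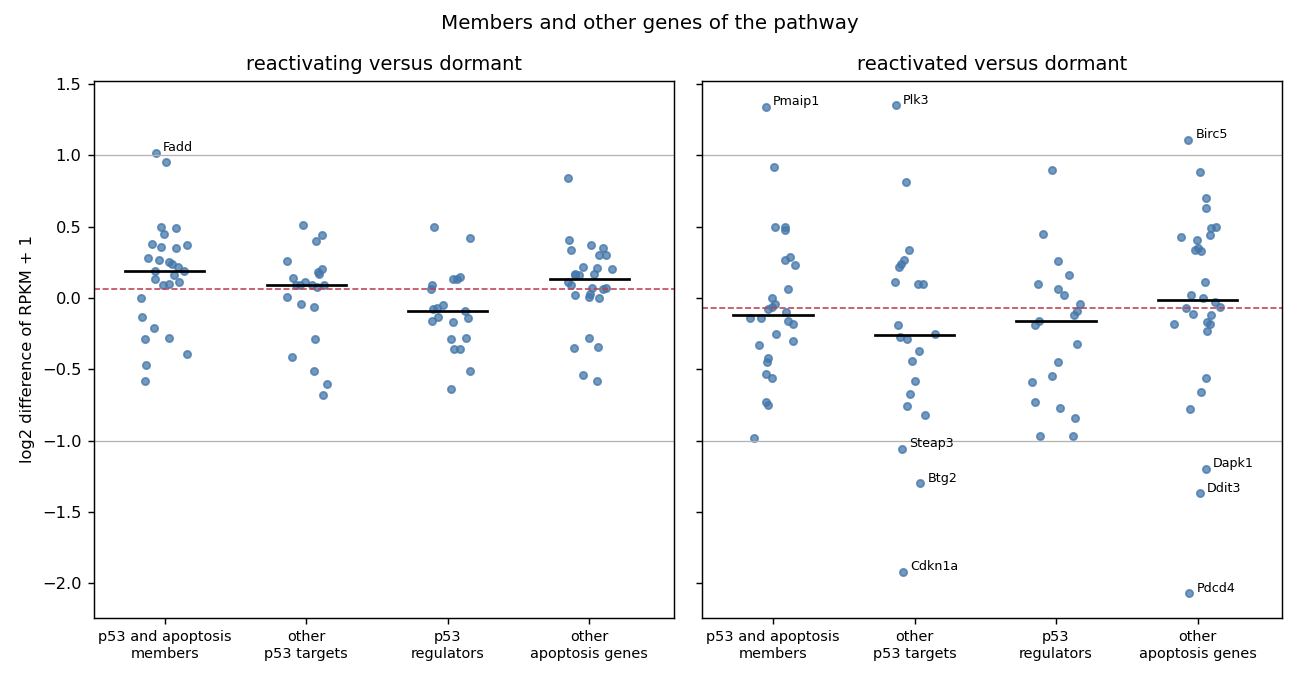
Log2 difference of RPKM + 1 for members and for 3 lists of other pathway genes at 1 RPKM or more, reactivating against dormant on the left and reactivated against dormant on the right, with black bars at list medians, a dashed line at the median of all genes (0.06 and -0.07) and grey lines at the call of 1. Fadd is the only call on the left, while Cdkn1a and Pdcd4 lie lowest on the right.

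Reads from the strand opposite to a member passed 10% of its reads in some library for 13 members, all of them below 10 RPKM. The share of all genes past this limit is not given here, so that the count shows nothing particular to the members. They made up a large share of all reads at Bcl2 (37.0%, 34.0% and 37.6% in dormant, reactivating and reactivated embryos), where the annotation places an antisense gene, D630008O14Rik, that shares 558 exon bases. At Bid they were 18.5%, 13.7% and 12.9%, and Bid shares 628 exon bases with Bcl2l13 on the opposite strand. At Pmaip1, Casp9 and Fadd they stayed at or under 5.68%.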

How the data were processed

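RNA from 3 pools of blastocysts was sequenced as 50 bp single-end SOLiD reads after depletion of ribosomal RNA, per the labels' protocols. The authors deposited read counts per gene for exons, introns, exon junctions and the opposite strand, per the file headers. The same files hold the authors' RPKM, which followed from exon reads, exon length and a library total within 2% or 0.011 RPKM for all gene rows but 1, in the reactivated table, with totals of 14118723, 15687239 and 18982195 reads in dormant, reactivating and reactivated libraries. The submitters' processing notes name GRCm38. For aligner, counter and annotation release nothing is given in the sources used here. Coordinates, overlaps and pseudogenes came from GENCODE M21 (GRCm38), promoters from RefSeq (GRCm38.p6).

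Members, roles and lists were chosen with earlier results of these data known. Full values go to Trp53, Mdm2, Mdm4, called members and the 3 most abundant members by mean RPKM (Mcl1, Perp, Diablo), while those of Bcl2l1 and Bok were added after their values were seen. Other values are given by role. Rfwd2, an older symbol of Cop1, was left out of the regulators. Levels have exact 95% Poisson intervals and ratios exact binomial ones (scipy 1.17.1, Python 3.11.15). Without molecular identifiers, reads may be PCR copies of a molecule. Intron ratios were scaled to each library's intron total, with at least 20 intron reads in the higher library. The calls were first run on simulated counts with counting error only, in genes at 5 RPKM or more. Such counts hold no spread between libraries and leave out lower genes such as Pmaip1, so that they do not check the calls made here. Alternatives covered pseudocount, minimum level, scaling, CPM, and the size of the call.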

Additional observations from a re-analysis of the deposited data

Results flagged for a closer look

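For 5 members the exon ratio over dormant lay wholly above 1 at 6 h and wholly below 1 at 12 h, so that the direction turned between the time points. The exon ratios at 6 h and 12 h were 1.39 and 0.782 for Bcl2l1, 1.40 and 0.633 for Bcl2l11, 1.21 and 0.442 for Casp9, 1.10 and 0.792 for Xiap, and 1.17 and 0.669 for Perp. Of 12454 genes 7.11% had the same turn. Both comparisons share the dormant library, and with 1 library per state the difference was not tested. With median-ratio scaling, chosen after the data were seen, Xiap dropped out and 4.13% of genes had the turn.

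Opposite-strand reads, scaled to each library's opposite-strand total, are used in no comparison above. With at least 20 such reads in the higher library, 2 of 7 members were higher in reactivating than in dormant embryos with an interval wholly above 1 (Bcl2l1, Bcl2l11), against 24.1% of 7392 genes, and none was lower, against 10.8%. In reactivated against dormant embryos 2 of 9 were higher (Bcl2l11, Sesn1), against 27.7% of 8704 genes, and 2 were lower (Bid, Cflar), against 12%. At Bcl2l1 they numbered 49 in reactivating and 19 in dormant embryos, a ratio of 1.92 (95% interval 1.11 to 3.45). At Bcl2l11 they numbered 36 in reactivating, 35 in reactivated and 8 in dormant embryos, ratios of 3.35 (1.53 to 8.34) and 2.60 (1.18 to 6.48). At Sesn1 they numbered 50 in reactivated and 11 in dormant embryos, a ratio of 2.70 (1.39 to 5.75). Under 20 reads, Mdm4 (17 in reactivating, 19 in reactivated and 3 in dormant embryos) and Birc3 (17 in reactivating and 4 in dormant embryos) also had intervals above 1, while Trp53 and Ei24 in reactivating and Bak1 and Bok in reactivated embryos had intervals below 1 over dormant.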

How the results depend on the processing

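No paired analysis was possible because each state has 1 library. The number of called members was small and moved with most settings. In reactivating against dormant embryos it was 1 and became 2 with a pseudocount of 0.1 or a call at 1.5 times (Bik and Fadd), and 0 with a pseudocount of 5, with median-ratio or upper-quartile scaling, or when the ratio interval had to lie wholly beyond 2 times. In reactivated against dormant embryos it was 1 and became 4 with a pseudocount of 0.1 or with CPM (at least 1 CPM and 20 reads), 2 with median-ratio or upper-quartile scaling, 5 at 1.5 times, and 0 with a pseudocount of 5 or a minimum of 5 RPKM. Bbc3 and Casp9 were lower with the pseudocount of 0.1, with CPM and at 1.5 times. In reactivated against reactivating embryos it was 1 and became 6 with a pseudocount of 0.1, 5 with CPM, 8 at 1.5 times, 2 with the strict interval (Bik and Casp9) and 0 with a pseudocount of 5. The cause of these shifts was not tested beyond the settings themselves. No member called in a comparison changed direction there under any of these settings. Uncalled members near 1 did so at 12 h over dormant, where Trp53, Mdm2 and Bax were at 0.955, 0.971 and 0.945 with the deposited scaling and 1.02, 1.04 and 1.01 with median ratios. So did Birc2 at 6 h over dormant (1.002 and 0.959), and Diablo (0.898 and 1.005) and Mcl1 (0.993 and 1.11, interval 1.05 to 1.18) in reactivated over reactivating embryos. Reads limit the low members most, with Bik, Bbc3 and Bmf under 100 exon reads in each library.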
